A study of Mus musculus with 9 samples.

Results

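The proteasome genes of these mouse pancreatic tumour cells were taken as every gene of the deposited table whose symbol is Psma, Psmb, Psmc or Psmd followed by digits alone. The interferon-induced catalytic subunits Psmb8, Psmb9 and Psmb10 were set aside. The rule gave 35 genes of 24012, made up of 8 Psma, 7 Psmb, 6 Psmc and 14 Psmd genes. RNA-seq was done on cells recovered from mouse lungs after tail vein injection, in 3 groups of 3 libraries. The DTC group was sorted on GFP at 5 days. The mCherryHigh and mCherryLow groups were sorted at 6 weeks on GFP and on high or low signal of a Gstt1-mCherry reporter. All 3 groups carry the genotype given as SIRT6F/F/p48-Cre/p53F/+KrasL/+, in which the Cre is driven by the pancreatic p48 promoter, and no group without the floxed Sirt6 alleles was compared. The labels call the cells of all groups PDAC lung metastatic tumour cells, give no age of the mice, and leave unsaid whether each library is a mouse of its own or a pool. The p-values therefore measure the spread between these libraries, which may be technical.

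The proteasome degrades proteins tagged with ubiquitin and is needed by every dividing cell. Its core is a barrel of stacked rings, in which Psma subunits form the outer α rings and Psmb subunits the inner β rings with the catalytic sites. A cap binds the barrel: the Psmc subunits are a ring of ATPases that unfold the substrate, and most Psmd subunits hold, bind or deubiquitinate it. Subunit genes are known to be transcribed together, and Nfe2l1 (also called Nrf1) raises them through antioxidant response elements when proteasome activity is short.

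The promoters are shown because Nfe2l1 itself was called lower in DTC, as described with the transcription factors. A link between antioxidant response elements and the levels measured here was not tested. Of the 35 genes, 28 had an entry among RefSeq promoters of build GRCm38.p6. The letters TGACNNNGC, the antioxidant response element, searched on both strands of the 250 bases before the start, were found in 5 of these 28 genes (17.9%), against 13.7% of 8166 genes with a mean of at least 10 CPM and 10.2% of all 32851 promoters. The share among members is thus near that of genes with a mean of at least 10 CPM. The 5 windows are printed 5′ to 3′ in the direction of the gene, with the match in capitals, since no other member's window held it.
Psmb5, chr14:54617996-54618245, minus strand: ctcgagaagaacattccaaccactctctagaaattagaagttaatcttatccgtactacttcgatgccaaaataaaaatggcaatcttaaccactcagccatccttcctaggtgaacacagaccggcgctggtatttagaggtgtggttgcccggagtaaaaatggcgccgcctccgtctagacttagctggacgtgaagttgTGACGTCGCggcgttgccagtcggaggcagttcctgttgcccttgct
Psmb6, chr11:70525107-70525356, plus strand: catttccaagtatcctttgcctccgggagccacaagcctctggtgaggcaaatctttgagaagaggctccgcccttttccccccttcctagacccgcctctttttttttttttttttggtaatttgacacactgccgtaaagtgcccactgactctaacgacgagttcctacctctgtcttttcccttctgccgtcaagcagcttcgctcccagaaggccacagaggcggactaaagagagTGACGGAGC
Psmc6, chr14:45329574-45329823, plus strand: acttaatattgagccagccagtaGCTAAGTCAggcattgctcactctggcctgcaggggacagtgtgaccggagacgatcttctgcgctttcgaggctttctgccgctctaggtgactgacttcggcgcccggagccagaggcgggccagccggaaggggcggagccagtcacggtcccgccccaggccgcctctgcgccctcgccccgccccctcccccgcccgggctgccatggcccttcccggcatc
Psmd12, chr11:107479278-107479527, plus strand: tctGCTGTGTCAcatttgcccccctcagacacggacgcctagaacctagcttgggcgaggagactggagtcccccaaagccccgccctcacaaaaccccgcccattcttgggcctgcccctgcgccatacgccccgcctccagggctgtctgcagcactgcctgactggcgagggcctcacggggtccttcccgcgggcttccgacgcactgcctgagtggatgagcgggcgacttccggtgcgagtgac
Psmd9, chr5:123227940-123228189, plus strand: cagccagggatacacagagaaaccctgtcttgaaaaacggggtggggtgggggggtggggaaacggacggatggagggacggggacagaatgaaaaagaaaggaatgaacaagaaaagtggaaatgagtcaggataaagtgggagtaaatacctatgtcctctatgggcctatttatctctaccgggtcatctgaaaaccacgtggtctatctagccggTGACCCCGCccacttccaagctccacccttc
The match lay 47 to 39 bases before the start of Psmb5, 9 to 1 before that of Psmb6 and 31 to 23 before that of Psmd9. In Psmc6 and Psmd12 it lay on the opposite strand, 227 to 219 and 247 to 239 bases before the start. The letters CCGGAAG, an ETS site, were in 9 of 28 members (32.1%), against 15.8% of genes with a mean of at least 10 CPM and 6.91% of all promoters. The letters CCAAT were in 11 of 28 (39.3%), against 40.4% and 33.8%. A match describes letters in this window and is not a measured binding site.

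Library totals ran from 643748 to 11861241 reads, and the DTC libraries held 923988 to 2052623. DTC 3 stood apart from the other DTC libraries: its level was the lowest of all 9 libraries in 29 of the 35 genes and the lowest of its group in 33. Krt8 was low there as well, at 76.8 CPM, against 1429 and 1878 CPM in DTC 1 and DTC 2. Krt19 was at 74.7 CPM, against 696 and 885 CPM, and Krt18 was low too. Krt7 (23.8 CPM, against 17.5 and 10.7 CPM) and Muc1 were instead highest in DTC 3 of the DTC libraries, and Epcam lay between. In DTC 3 the macrophage gene Lyz2 was at 3967 CPM, against 1929 and 1468 CPM. Among the other macrophage and monocyte markers found, Cd74 (621 CPM, against 738 and 988 CPM), H2-Ab1 and C1qc were lowest in DTC 3 of the DTC libraries. Csf1r lay between, and the rest were highest in DTC 3. Where leaving out DTC 3 changes a call named here, the value without it is given. Over the 16 macrophage and monocyte markers, of which 15 were found, the summed level was 5022 to 9575 CPM in DTC, 584 to 1135 CPM in mCherryHigh and 525 to 1069 CPM in mCherryLow. C1qb and C1qc were at 0 in every mCherryHigh library, and none of the 15 was at 0 throughout DTC or throughout mCherryLow. The 8 endothelial markers summed to 197 to 363 CPM in DTC, 33.0 to 52.8 CPM in mCherryHigh and 15.6 to 23.6 CPM in mCherryLow. The 5 lung epithelial markers summed to 122 to 471 CPM in DTC, 10.9 to 41.8 CPM in mCherryHigh and 8.08 to 19.6 CPM in mCherryLow. The 7 markers of T and NK cells found, of 10, summed to 58.0 to 341 CPM in DTC, 3.98 to 7.77 CPM in mCherryHigh and 1.50 to 7.31 CPM in mCherryLow. Neutrophil markers summed to 30.4 to 109 CPM in DTC, and to at most 20.3 CPM in mCherryHigh and 11.2 CPM in mCherryLow. B cell markers summed to 31.2 to 74.7 CPM in DTC, and to at most 9.32 CPM in mCherryHigh and 11.5 CPM in mCherryLow. Fibroblast markers summed to 62.8 to 175 CPM in DTC, 37.3 to 92.5 CPM in mCherryHigh and 24.3 to 54.9 CPM in mCherryLow. Acinar markers summed to 0.761 to 34.6 CPM in DTC, and to at most 2.35 CPM in mCherryHigh and 5.36 CPM in mCherryLow. The 10 markers of ductal tumour epithelium, all found, summed to 1113 to 8082 CPM in DTC, 4079 to 8845 CPM in mCherryHigh and 4148 to 4753 CPM in mCherryLow. The part of these other cell types in the results was not tested. Time after injection, sort gate and the code series of the descriptions (CFa14 for DTC, CFa10, CFa12 or CFa13 for the others) change together, so for DTC they cannot be told apart.

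The proteasome genes together took a smaller part of the reads in DTC than in mCherryLow. Their summed level was 5568, 7100 and 2981 CPM in the 3 DTC libraries, 8061, 6552 and 6860 CPM in mCherryHigh, and 8373, 9508 and 8983 CPM in mCherryLow. Every DTC library lay below every mCherryLow library, every mCherryHigh library did too, and DTC and mCherryHigh overlapped. In means, this was 5216 ± 2082 CPM in DTC, 7157 ± 797 CPM in mCherryHigh and 8955 ± 568 CPM in mCherryLow (SD, n = 3 each). In a bulk sample, fewer cells of a type and less RNA per cell cannot be told apart. Gm10800 and Lars2 took 1.57 to 9.14% and 1.64 to 4.29% of the DTC reads, and at most 0.273% of any other library. With these genes and Gm10801 left out of the totals, the sums were 6313, 7355 and 3513 CPM in DTC, 8081, 6560 and 6900 CPM in mCherryHigh, and 8385, 9520 and 8996 CPM in mCherryLow, so that DTC and mCherryLow still did not overlap.

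By part of the complex, the 11 Psmd subunits of the cap, chaperones aside, summed to 1812, 2591 and 1027 CPM in DTC, 2694, 2450 and 2135 CPM in mCherryHigh, and 2984, 3808 and 3128 CPM in mCherryLow. The ATPase ring summed to 1065, 1399 and 544 CPM in DTC, 1881, 1558 and 1456 CPM in mCherryHigh, and 1846, 2203 and 2171 CPM in mCherryLow. In both parts each DTC library was below each mCherryLow library. The β ring summed to 1088, 1205 and 598 CPM in DTC, 1432, 1110 and 1502 CPM in mCherryHigh, and 1642, 1442 and 1648 CPM in mCherryLow, again with every DTC library below every mCherryLow library. The α ring summed to 1454, 1691 and 742 CPM in DTC, 1693, 1207 and 1546 CPM in mCherryHigh, and 1655, 1737 and 1704 CPM in mCherryLow, so that DTC 2 overlapped with mCherryLow there.

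**Figure D1:**
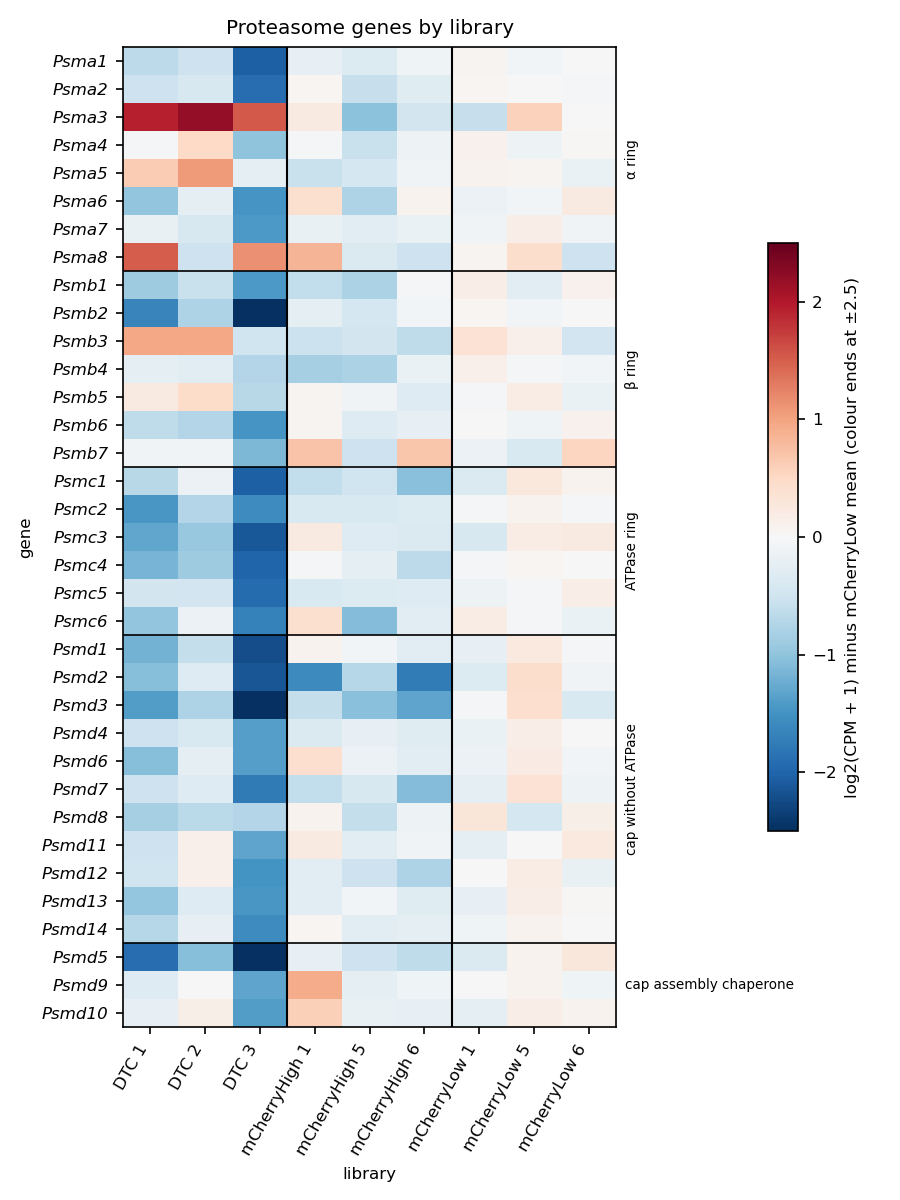
Each row is a proteasome gene, ordered by its place in the complex, and each column a library. Colour gives log2(CPM + 1) minus the mean of the mCherryLow libraries: most rows are blue in DTC and darkest in DTC 3, while Psma3 is red in all 3 DTC libraries.

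Differences were tested gene by gene with limma on log2(CPM + 1), with Benjamini-Hochberg adjustment over all genes tested and a threshold of 0.05. Tested were genes that reached 1 CPM in 3 or more of the 6 libraries compared, as 34 of the 35 members did in DTC against mCherryLow. Of these 34, 31 had a difference below 0, with a median of -0.89 on the log2 scale. The median over all 18701 genes tested was 0.59, and 37.4% of them were below 0. Among genes with a mean of at least 10 CPM the share below 0 was 50.4%. The members called lower numbered 9, where 8.87% of all genes were called lower, and 1 was called higher, where 34.2% were. The 9 were Psmd5, Psmb2, Psmd3, Psmc3, Psmc4, Psmd1, Psmc2, Psmb1 and Psmb6, and the gene called higher was Psma3. On the recovered whole reads, edgeR's quasi-likelihood test called 24 members lower and 1 higher, where it called 16.6% of all genes lower and 24.4% higher. DESeq2 called 23 lower and 1 higher, where it called 15.8% of all genes lower and 27.5% higher. At an unadjusted limma p under 0.05, 18 members were lower and 1 higher, where 12.8% of all genes were lower and 38.4% higher. The groups did not overlap, with DTC lower, in 21 of the 34 members, against 14.2% of all genes, and with DTC higher in 1, against 39.0%. Among genes with a mean of at least 10 CPM, limma called 11.7% lower and 23.1% higher. Without DTC 3, 6 members were called lower and 1 higher, with Psmb1, Psmb6 and Psmd1 no longer called, and 29 of 34 were below 0 with a median of -0.47. Quantile normalization, which sets all libraries to the same distribution, left 1 member called lower and 1 higher. Scaling by the median of ratios gave 23 lower and 1 higher.

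All 6 ATPases of the cap had differences below 0, of -1.45 to -0.94, and 3 of the 6 passed the limma test as lower. Over all genes tested, 37.4% were below 0 and 8.87% were called lower, or 50.4% and 11.7% with a mean of at least 10 CPM. Psmc4, an ATPase of the cap, had 167, 203 and 93.1 CPM in DTC, 365, 322 and 240 CPM in mCherryHigh, and 363, 389 and 379 CPM in mCherryLow. No DTC library reached the lowest of the other groups. It fell by 1.35 ± 0.36 (log2, SE; 2.55-fold lower) in DTC against mCherryLow, with a limma adjusted p of 0.0106. Psmc3, another ATPase of the ring, had 158, 204 and 89.8 CPM in DTC, 461, 313 and 303 CPM in mCherryHigh, and 296, 445 and 457 CPM in mCherryLow. It fell by 1.45 ± 0.38 (2.73-fold lower, limma adjusted p = 0.00999), and the DTC libraries again lay below both other groups. Psmc2 had 113, 185 and 104 CPM in DTC, 239, 238 and 243 CPM in mCherryHigh, and 298, 330 and 302 CPM in mCherryLow. It fell by 1.25 ± 0.34 (limma adjusted p = 0.0117), with the 3 groups in separate ranges. Psmc1, Psmc5 and Psmc6 had differences of -0.96, -0.95 and -0.94 that did not pass with limma, while edgeR called all 3 lower.

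All 11 non-ATPase cap subunits with a Psmd symbol, chaperones aside, had differences below 0, between -1.61 and -0.57, and 2 of them passed as lower. Called lower were thus 18.2% of them, beside 8.87% of all genes and 11.7% of those with a mean of at least 10 CPM. This count is near the background. Of the same 2 sets of genes, 37.4% and 50.4% were below 0. Adrm1 and Shfm1, cap subunits outside the rule, differed by 0.06 and 0.13 in DTC against mCherryLow and were not called. Under 50% of the 50-base windows of Adrm1 are found in no other annotated transcript, a limit described below. Over all genes of that class the median difference was 1.03, so the value of Adrm1 is less certain. The windows of Shfm1 are all its own. Psmd3, a scaffold subunit of the lid, had 152, 237 and 62.8 CPM in DTC, 267, 195 and 161 CPM in mCherryHigh, and 392, 538 and 310 CPM in mCherryLow. It fell by 1.61 ± 0.46 against mCherryLow (3.05-fold lower, limma adjusted p = 0.0155), and DTC overlapped with mCherryHigh. Psmd1, a large scaffold at the base that docks ubiquitin receptors, had 161, 242 and 77.9 CPM in DTC, 391, 348 and 300 CPM in mCherryHigh, and 319, 436 and 351 CPM in mCherryLow. It fell by 1.33 ± 0.42 (2.52-fold lower, limma adjusted p = 0.0228), and its DTC libraries lay below all the others. Without DTC 3 the difference was -0.89 and was not called (limma adjusted p = 0.0530). Psmd14, the metalloprotease that removes the ubiquitin chain, had 139, 199 and 75.8 CPM in DTC, 235, 188 and 194 CPM in mCherryHigh, and 212, 244 and 230 CPM in mCherryLow. Its difference from mCherryLow was -0.83 ± 0.39 (limma adjusted p = 0.107), with no overlap of DTC and mCherryLow. Psmd2, the other large base scaffold, had 227, 376 and 106 CPM in DTC, 157, 288 and 141 CPM in mCherryHigh, and 371, 645 and 443 CPM in mCherryLow. DTC 2 was a little above mCherryLow 1, and the difference of -1.18 ± 0.45 missed the threshold (limma adjusted p = 0.0519). Psmd12 and Psmd7, both lid subunits, differed by -0.62 and -0.87 without passing with limma, while edgeR called Psmd7 lower (adjusted p = 0.0349) and not Psmd12 (adjusted p = 0.0807). Psmd8, a lid subunit, had an even level in DTC, with 147, 163 and 158 CPM there, 278, 172 and 241 CPM in mCherryHigh, and 323, 193 and 289 CPM in mCherryLow.

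The Psmd symbols also name 3 chaperones that help build the base of the cap and leave it again. Psmd5, which binds ATPases while the ring is put together, had the lowest difference of all members. Its level was 44.9, 80.4 and 20.6 CPM in DTC, 148, 118 and 109 CPM in mCherryHigh, and 132, 180 and 207 CPM in mCherryLow, with 19 reads behind the lowest value. DTC was below both other groups without overlap. It fell by 1.99 ± 0.48 against mCherryLow (3.96-fold lower, limma adjusted p = 0.00612). The other chaperones did not pass: Psmd9 had 44.1, 55.1 and 21.6 CPM in DTC, 106, 46.9 and 51.0 CPM in mCherryHigh, and 55.6, 58.9 and 51.3 CPM in mCherryLow. Psmd10, also known as gankyrin, had 60.9, 78.4 and 26.0 CPM in DTC, 107, 61.4 and 61.0 CPM in mCherryHigh, and 59.0, 78.9 and 74.8 CPM in mCherryLow. Their DTC minus mCherryLow differences were -0.54 and -0.48, with overlapping libraries.

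**Figure D2:**
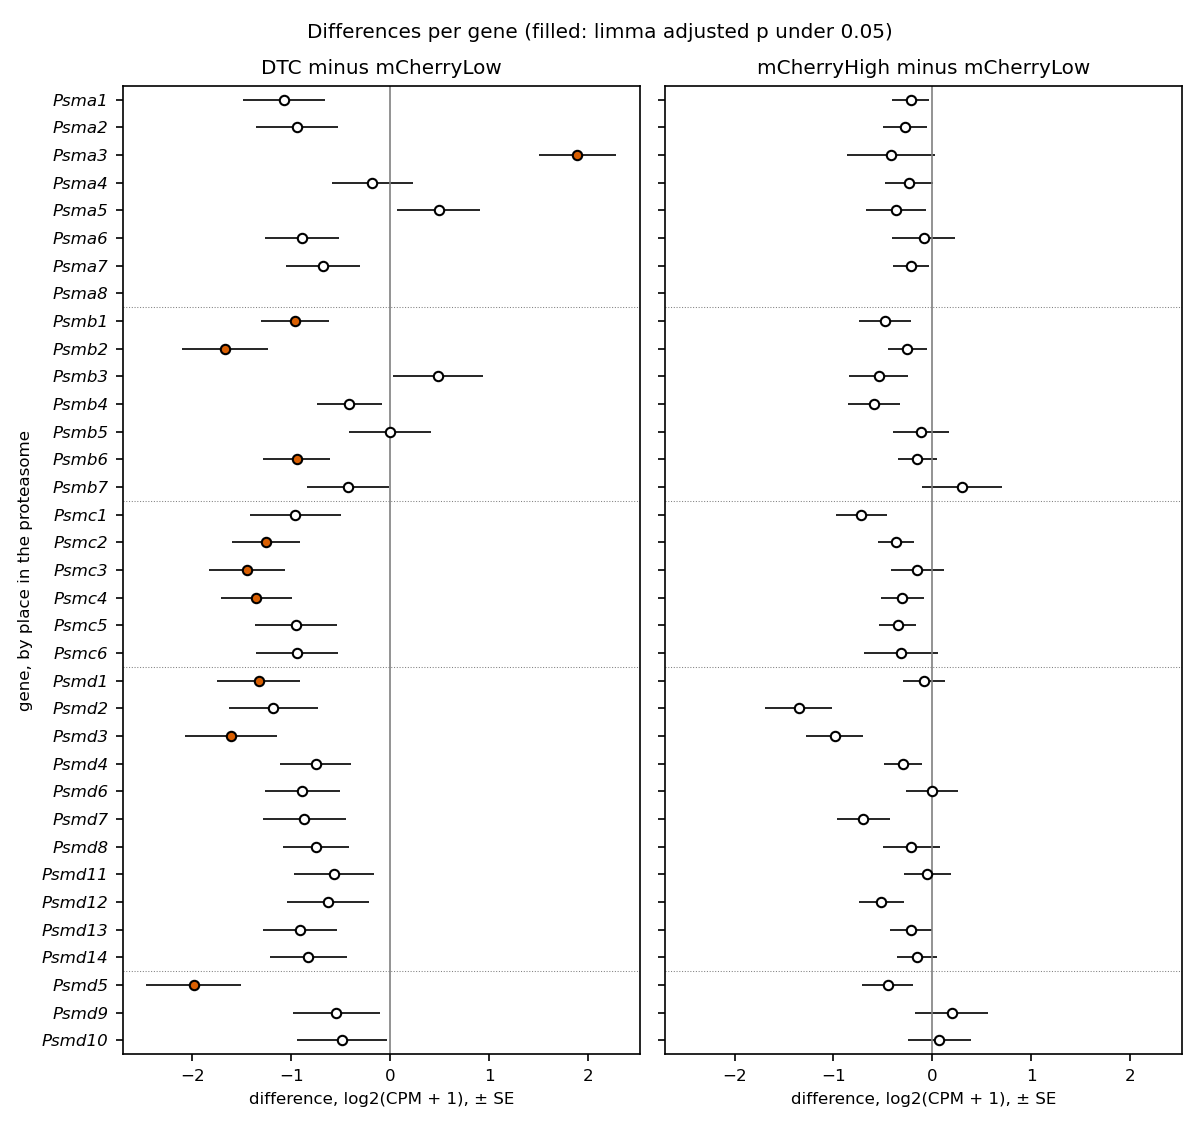
Points are the limma difference of each gene on the log2(CPM + 1) scale with its SE, DTC minus mCherryLow on the left and mCherryHigh minus mCherryLow on the right, on the same axis. Filled points have an adjusted p under 0.05: 9 to the left of 0 and Psma3 to the right for DTC, and 0 for mCherryHigh.

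In the core, 3 of the 7 β subunits passed as lower, where 8.87% of all genes did. Psmb2, a structural β subunit, had 104, 192 and 54.1 CPM in DTC, 278, 241 and 313 CPM in mCherryHigh, and 341, 316 and 331 CPM in mCherryLow. It fell by 1.67 ± 0.43 (3.18-fold lower, limma adjusted p = 0.00909), with DTC below both other groups. Psmb6, the catalytic subunit that cuts after acidic residues, had 312, 290 and 174 CPM in DTC, 511, 386 and 418 CPM in mCherryHigh, and 488, 449 and 519 CPM in mCherryLow. It fell by 0.95 ± 0.34 (1.93-fold lower, limma adjusted p = 0.0397) and was not called once DTC 3 was left out (-0.69, adjusted p = 0.0743). Psmb1, a structural subunit, fell by 0.96 (limma adjusted p = 0.0417) and was not called without DTC 3 (-0.73, limma adjusted p = 0.0889). The other catalytic subunits were not called. Psmb5, the chymotrypsin-like subunit and main target of bortezomib, had 64.7, 76.0 and 33.6 CPM in DTC, 57.5, 51.4 and 44.0 CPM in mCherryHigh, and 54.1, 62.8 and 49.1 CPM in mCherryLow. These ranges overlapped, and the difference was 0.00 ± 0.42, which does not show that the groups are alike. Psmb7, the trypsin-like subunit, had 135, 135 and 64.9 CPM in DTC, 236, 100 and 230 CPM in mCherryHigh, and 129, 109 and 207 CPM in mCherryLow, with a difference of -0.43 ± 0.41. Psmb3 had 169, 169 and 60.6 CPM in DTC, 59.0, 61.8 and 54.8 CPM in mCherryHigh, and 110, 93.3 and 61.3 CPM in mCherryLow. DTC 1 and DTC 2 lay above all other libraries and DTC 3 among them, and the difference of 0.48 was not called. Psmb4, the last β subunit, had 143, 140 and 101 CPM in DTC, 94.8, 96.5 and 151 CPM in mCherryHigh, and 185, 162 and 160 CPM in mCherryLow, with a difference of -0.41 from mCherryLow and groups that did not overlap.

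Psma3 was the member called higher in DTC. This α subunit had 231, 277 and 174 CPM in DTC, 69.9, 28.6 and 42.8 CPM in mCherryHigh, and 39.5, 89.6 and 59.4 CPM in mCherryLow. All DTC libraries lay above all others, DTC 3 included. It rose by 1.89 ± 0.39 against mCherryLow (3.71-fold, limma adjusted p = 0.00286) and by 2.31 ± 0.41 against mCherryHigh (limma adjusted p = 0.00357). Psma5 had 79.2, 107 and 43.3 CPM in DTC, 34.2, 36.9 and 47.4 CPM in mCherryHigh, and 54.1, 53.5 and 45.1 CPM in mCherryLow, a difference of 0.49 from mCherryLow that was not called. The other 5 tested α subunits were between -1.07 and -0.18 and none passed with limma. Psma1, for instance, had 200, 220 and 75.8 CPM in DTC, 272, 250 and 291 CPM in mCherryHigh, and 333, 302 and 312 CPM in mCherryLow (-1.07 ± 0.42, limma adjusted p = 0.0559). Psma8, the testis form of an α subunit, was close to the detection limit, with 3.04, 0 and 2.16 CPM in DTC, 1.55, 0.102 and 0 CPM in mCherryHigh, and 0.488, 0.939 and 0 CPM in mCherryLow. Where no read was seen, the limit set by 3 reads is 1.46 CPM in DTC 2, 0.307 CPM in mCherryHigh 6 and 0.253 CPM in mCherryLow 6.

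**Figure D3:**
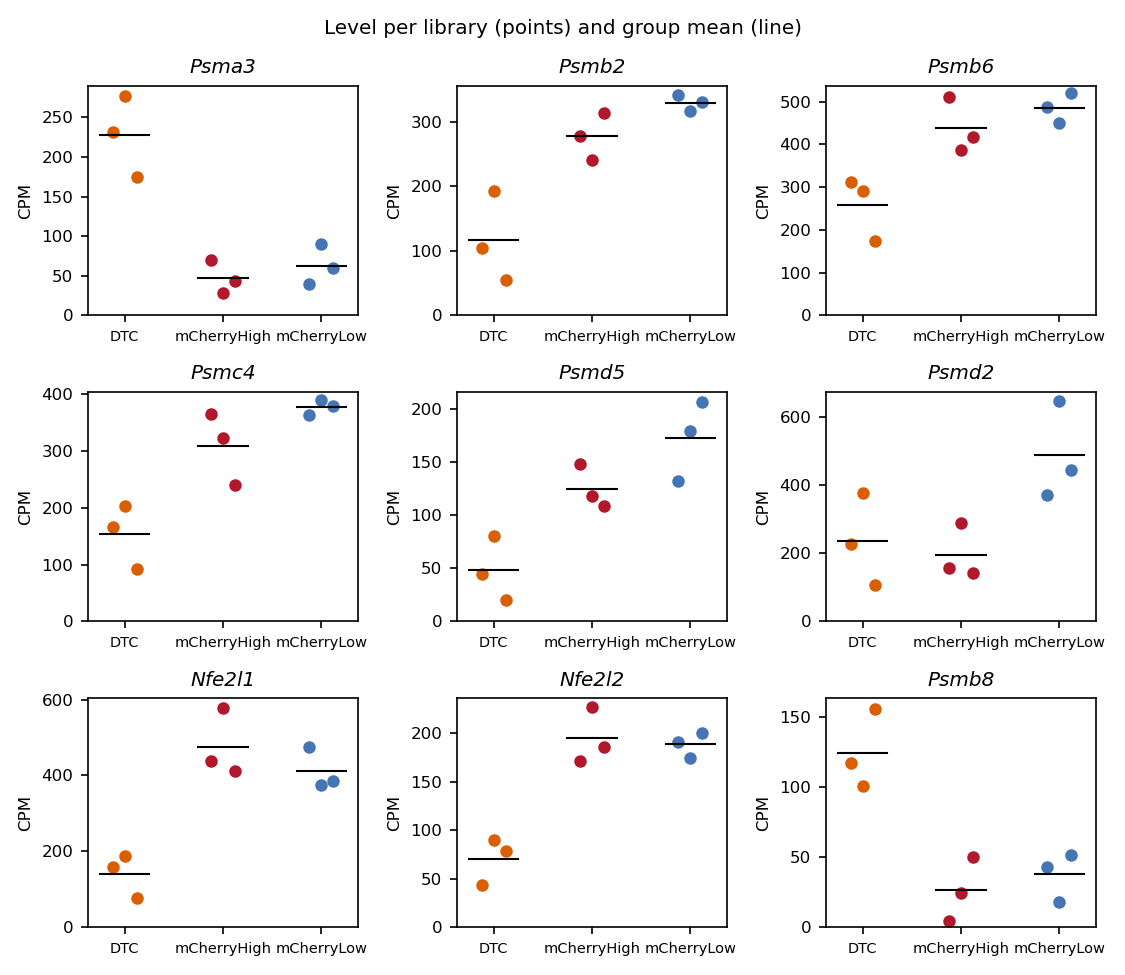
CPM of 9 genes in each library (points) with the group mean (line), on linear axes from 0. Psma3 and Psmb8 are highest in DTC; Psmb2, Psmb6, Psmc4, Psmd5, Nfe2l1 and Nfe2l2 have their 3 DTC libraries below all others; Psmd2 is lower in mCherryHigh than in mCherryLow in every library.

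The members differ in how much of their sequence is their own. Many proteasome genes have processed pseudogenes, and the share of a gene's 50-base windows found in no other annotated transcript varied from 42.9% in Psmb5, 44.2% in Psmb3 and 44.6% in Psma5, through 78.0% in Psma3, to 100%. Of the 24 tested members with at least 90% unique windows, 24 were below 0 in DTC against mCherryLow, with a median of -0.94. Called lower were 9 and higher 0, where limma called 9.71% of all genes of this class lower and 32.6% higher. The groups did not overlap, with DTC lower, in 20, against 14.2% of all genes tested. Of the 10 members under 90%, 7 were below 0, 0 were called lower and 1 higher, with a median of -0.30. Over all genes from 50 to 90%, limma called 8.19% lower and 33.2% higher, and under 50% it called 3.77% and 40.1%. The 0 called lower among these 10 is thus near the background. Across the 34 members, which share libraries and depth, Pearson's r between the unique share and the difference was -0.61 and Spearman's rho -0.40. For mCherryHigh minus mCherryLow they were 0.07 and -0.01. Over all genes, the median difference of DTC from mCherryLow was 1.03 for 822 genes under 50% unique windows, 0.56 for 2882 genes from 50 to 90%, where Psma3 and 6 other members lie, and 0.49 for 14220 genes at 90% or more. The DTC columns were deposited with 15 significant digits and the other columns with 9 or 10. How reads that match several genes were counted is not given in the sources used here, and its part in these differences was not tested. Psma3 shares 616 windows with Gm13835, which was at 12.2, 14.6 and 4.33 CPM in DTC, 15.5, 2.45 and 4.09 CPM in mCherryHigh, and 4.39, 5.16 and 8.18 CPM in mCherryLow. Psma3 also shares 42 windows with Gm609, which was higher in DTC, at 89.1, 38.0 and 54.1 CPM. Gm609 was at 15.5, 3.37 and 10.2 CPM in mCherryHigh, and 1.46, 5.07 and 4.55 CPM in mCherryLow. Gm5406 and Gm4742, which share 118 and 77 windows with Psma3, had no values here. Where reads are shared between genes, the values of the 10 members under 90% are less certain than the others.

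**Figure D4:**
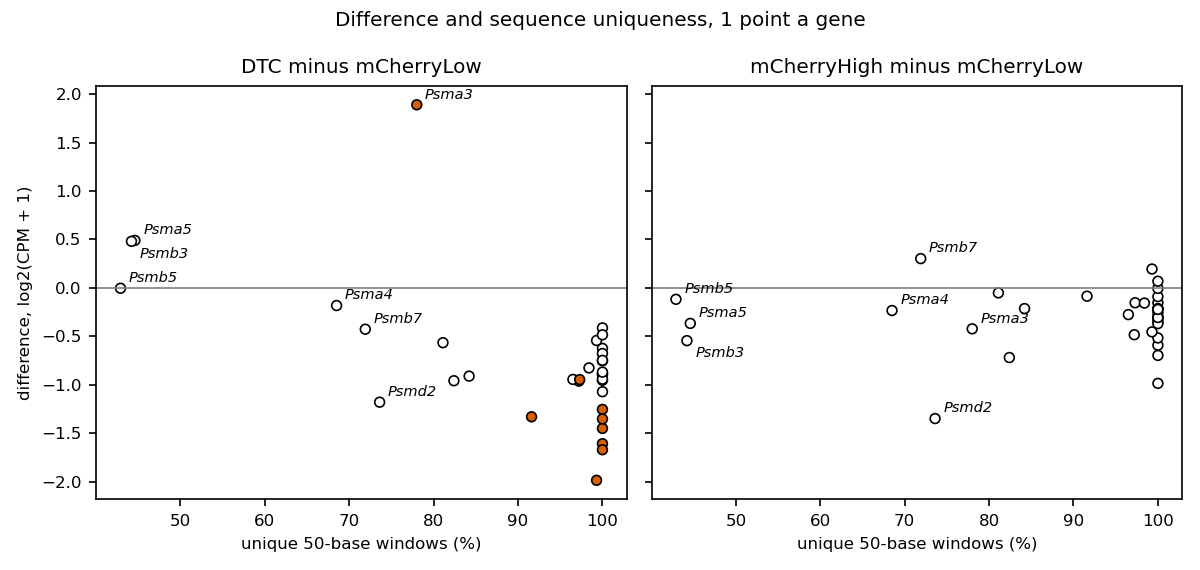
Each point is a proteasome gene, with the share of unique 50-base windows (percent) on the x axis and the log2(CPM + 1) difference on the y axis, DTC minus mCherryLow on the left and mCherryHigh minus mCherryLow on the right. On the left the points at 90% or more all lie below 0, and the points above 0 have under 80% unique windows; filled points have a limma adjusted p under 0.05.

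Levels per kilobase of transcript differed widely within a complex whose subunits are built in equal number. Among members with high levels, Psmb6 averaged 324 CPM per kb in DTC and 608 in mCherryLow, Psma7 344 in DTC and 518 in mCherryLow, and Psmb2 136 in DTC and 383 in mCherryLow. Among those with low levels, Psmb5 averaged 64.6 CPM per kb in DTC and 61.5 in mCherryLow, Psma5 61.8 in DTC and 41.1 in mCherryLow, and Psma3 79.9 in DTC and 22.1 in mCherryLow. These 6 were picked for their levels, and the low ones have 42.9 to 78.0% unique windows, so nothing is read from their spread.

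DTC was also set against mCherryHigh, where 35 members were tested, Psma8 included. The members below 0 numbered 27, with a median of -0.60, against a median of 0.55 over all 19700 genes tested, of which 36.6% were below 0. Called lower were 4 members, Psmc3, Psmb2, Psmd5 and Psmd1, where 7.19% of all genes were, and called higher was 1, Psma3, where 23.0% of all genes were. Their differences were -1.30 for Psmc3, -1.42 for Psmb2, -1.53 for Psmd5 and -1.25 for Psmd1, with limma adjusted p of 0.0279, 0.0341, 0.0348 and 0.0452. Psmc4 differed by -1.05 (limma adjusted p = 0.0589), Psmb6 by -0.79, Psmb7 by -0.73 and Psmd14 by -0.67. Beside Psma3, 7 members were above 0 and not called: Psmb3 at 1.03, Psma5 at 0.86, Psma8 at 0.73, Psmb4 at 0.18, Psmd2 at 0.17, Psmb5 at 0.11 and Psma4 at 0.05. Without DTC 3, 0 members were called lower and 2 higher, Psma3 and Psmb3, and 24 of 34 were below 0 with a median of -0.22. Psmc3, Psmb2, Psmd5 and Psmd1 were then at -0.97, -0.96, -1.03 and -0.80, with limma adjusted p of 0.0632, 0.0825, 0.0853 and 0.0996. Psmb3 was then at 1.51 (limma adjusted p = 0.0205). Leaving out mCherryHigh 5, mCherryHigh 6 or DTC 1 also left 0 called lower, and leaving out mCherryHigh 1 left 1. edgeR called 7 members lower and 1 higher, where it called 10.8% of all genes lower and 15.9% higher, and DESeq2 also called 7 and 1, against 11.0% and 21.8%. At an unadjusted limma p under 0.05, 7 members were lower and 2 higher, against 11.6% and 30.9% of all genes. The groups did not overlap, with DTC lower, in 12 of 35, against 13.2% of all genes, and with DTC higher in 1, against 31.4%. Among genes with a mean of at least 10 CPM, 48.6% were below 0, and limma called 10.6% lower and 19.5% higher. This comparison shares its libraries with the other comparisons, so its values are not further evidence for them.

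Between the groups sorted at 6 weeks, no single member passed. Of 34 members tested in mCherryHigh against mCherryLow, 31 were below 0, with a median of -0.26, against 0.09 over all 15437 genes tested and 43.6% of them below 0, or 50.7% among genes with a mean of at least 10 CPM. limma and edgeR called 0 members and 0 genes in all, and DESeq2 called 0 members, with 0.360% of all genes called higher and 0.727% lower. At an unadjusted limma p under 0.05, 4 members were lower and 0 higher, where 3.30% of all genes were lower and 6.08% higher. The groups did not overlap, with mCherryHigh lower, in 12 of the 34, against 5.78% of all genes, and in 0 with mCherryHigh higher, against 10.2%. The 5 members with the smallest p below 0 were Psmd2, Psmd3, Psmc1, Psmd7 and Psmd12, at -1.35, -0.99, -0.72, -0.70 and -0.52, each with a limma adjusted p between 0.444 and 0.539. Psmd2 was at 157, 288 and 141 CPM in mCherryHigh and 371, 645 and 443 CPM in mCherryLow, with 73.6% unique windows. Psmc1, an ATPase, was at 233, 255 and 172 CPM in mCherryHigh and 279, 432 and 381 CPM in mCherryLow. Psmd7, the inactive partner of Psmd14, was at 197, 230 and 143 CPM in mCherryHigh and 257, 392 and 276 CPM in mCherryLow, and Psmd12 was at 239, 199 and 168 CPM in mCherryHigh and 285, 326 and 253 CPM in mCherryLow. In each of them all mCherryHigh libraries were below all mCherryLow libraries. Psmb7, Psmd9 and Psmd10 were above 0, at 0.30, 0.20 and 0.07.

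Within code series the shift was not even. In CFa10, with 1 library a group, 19 of 34 members were lower in mCherryHigh 1 than in mCherryLow 1, with a median of -0.09. In CFa12, 34 of 34 were lower in mCherryHigh 5 than in the mean of mCherryLow 5 and 6, with a median of -0.42. mCherryHigh 6 was alone in CFa13 and had 32 of 34 members below the mean of the mCherryLow libraries, with a median of -0.29. Over all genes kept, the medians were 0.16 in CFa10, 0.08 in CFa12 and 0.18 for CFa13, and each case rests on 1 mCherryHigh library. Psmd2 was at -1.24, -0.89 and -1.74 in the 3 cases. mCherryHigh 1 was the shallowest library of the series.

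The catalytic subunits set aside by the rule were measured against their constitutive counterparts. Immune cells and cells exposed to interferon build Psmb8 in place of Psmb5 and Psmb10 in place of Psmb7, giving the immunoproteasome. Psmb9, which takes the place of Psmb6, was not analysed here. Psmb8 had 117, 101 and 156 CPM in DTC, 4.66, 24.4 and 50.2 CPM in mCherryHigh, and 43.4, 18.4 and 51.8 CPM in mCherryLow. It rose by 1.79 ± 0.45 against mCherryLow (limma adjusted p = 0.0073) and by 2.67 ± 0.68 against mCherryHigh (limma adjusted p = 0.0146, and 0.0596 without DTC 3). edgeR called it against mCherryLow (adjusted p = 0.0473) and not against mCherryHigh (adjusted p = 0.0618). Psmb10 had 206, 166 and 80.1 CPM in DTC, 110, 55.5 and 81.6 CPM in mCherryHigh, and 93.1, 78.1 and 83.7 CPM in mCherryLow, which limma did not call (0.72 ± 0.40 against mCherryLow, adjusted p = 0.171). Without DTC 3 it was called higher (1.11, limma adjusted p = 0.0255). Of the activator subunits of the interferon-induced cap, Psme2 had 378, 351 and 160 CPM in DTC, 82.3, 68.3 and 127 CPM in mCherryHigh, and 126, 86.6 and 142 CPM in mCherryLow. It rose by 1.25 against mCherryLow (limma adjusted p = 0.0260) with 40.7% unique windows, and edgeR did not call it (adjusted p = 0.131). Its partner Psme1 differed by -0.37 and was not called. The inhibitor Psmf1 differed by -1.08, which limma did not call (adjusted p = 0.0720), while edgeR (adjusted p = 0.0175), DESeq2 (adjusted p = 0.0138) and limma without DTC 3 (-1.34, adjusted p = 0.0476) called it lower. Of the 7 genes found of the 9 in this list, limma called 2 higher and 0 lower in DTC against mCherryLow, where 34.2% of all genes were called higher and 8.87% lower, so the count is near the background.

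As a ratio within each library, which no scaling can change, Psmb10 over Psmb7 was 1.53, 1.22 and 1.23 in DTC, 0.467, 0.553 and 0.355 in mCherryHigh, and 0.723, 0.718 and 0.404 in mCherryLow. All DTC values were above 1 and all others below it. The DTC 3 value rests on 74 reads of Psmb10 against 60 of Psmb7, with an exact (Clopper-Pearson) 95% interval of 0.866 to 1.76, which includes 1. Psmb8 over Psmb5 was 1.81, 1.33 and 4.65 in DTC, 0.0811, 0.474 and 1.14 in mCherryHigh, and 0.802, 0.293 and 1.05 in mCherryLow. Here too DTC did not overlap with the other groups. Unique windows made up 71.9% of Psmb7 and 42.9% of Psmb5, against 100% of Psmb10 and 94.2% of Psmb8. How shared reads were counted could change these ratios, and this was not tested. The lowest ratio, in mCherryHigh 1, rests on 3 reads of Psmb8 against 37 of Psmb5, with an exact (Clopper-Pearson) 95% interval of 0.0160 to 0.256 that covers counting error alone. For DTC against mCherryLow the log2 difference was 1.15 for Psmb10 over Psmb7 and 1.83 for Psmb8 over Psmb5, each with a two-sided exact permutation p of 0.1, the smallest that 3 against 3 allows, and 0.15 after adjustment over 6 ratios tested. For mCherryHigh against mCherryLow the differences were -0.40 and -0.83, with exact permutation p of 0.3 and 0.7. The summed macrophage and monocyte markers given above were also higher in DTC than in the other groups. Of these markers, Cd68, Emr1 and Mrc1 overlapped between DTC and mCherryLow. Within DTC, Lyz2 and Psmb8 over Psmb5 were highest in DTC 3, while Psmb10 over Psmb7 was highest in DTC 1. The part of macrophages in these ratios was not tested.

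**Figure D5:**
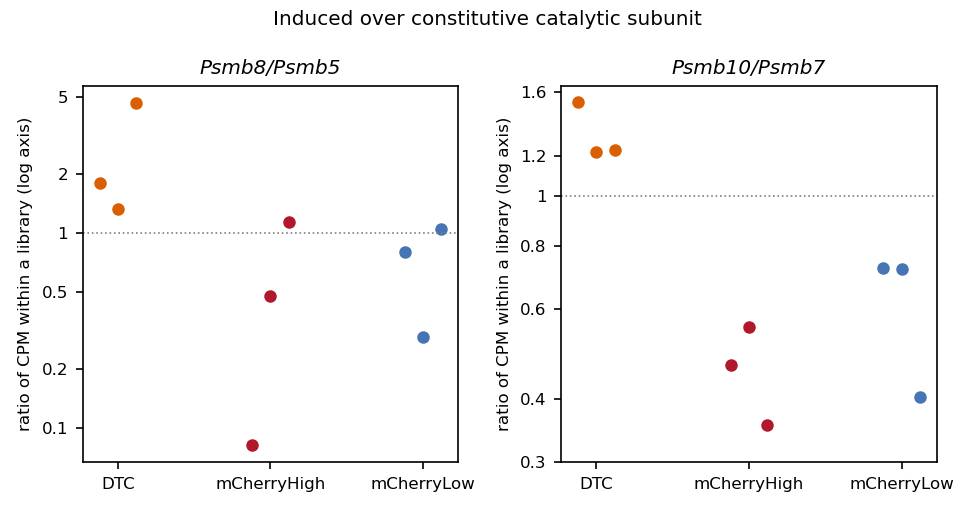
Ratio of CPM of the induced over the constitutive catalytic subunit within each library, on log axes, with a dotted line at 1. The 3 DTC libraries lie above all other libraries in both panels.

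Nfe2l1 and Nfe2l2, factors that act on proteasome genes, fell in DTC. Nfe2l1 had 158, 188 and 77.9 CPM in DTC, 437, 579 and 411 CPM in mCherryHigh, and 474, 374 and 385 CPM in mCherryLow. It fell by 1.62 ± 0.38 against mCherryLow (3.07-fold lower, limma adjusted p = 0.00559) and fell by 1.82 ± 0.39 against mCherryHigh (3.54-fold lower, limma adjusted p = 0.00729). Nfe2l2 (also called Nrf2), the oxidative stress factor, had 43.4, 90.1 and 79.0 CPM in DTC, 171, 227 and 186 CPM in mCherryHigh, and 191, 174 and 200 CPM in mCherryLow. It fell by 1.46 ± 0.37 against mCherryLow (limma adjusted p = 0.0085) and fell by 1.50 ± 0.38 against mCherryHigh (limma adjusted p = 0.0148). The call against mCherryHigh was lost without DTC 1 or without mCherryHigh 5 (limma adjusted p = 0.0774 and 0.0557). In both genes every DTC library was below every library of the other groups. Ngly1, the glycanase needed to activate the Nfe2l1 protein, had 22.1, 28.7 and 51.9 CPM in DTC, 37.3, 83.5 and 73.1 CPM in mCherryHigh, and 80.0, 66.5 and 85.7 CPM in mCherryLow, and fell by 1.23 against mCherryLow (limma adjusted p = 0.0337). Nfya, a subunit of the factor that binds CCAAT, had 37.3, 30.2 and 57.4 CPM in DTC, 23.3, 6.22 and 21.4 CPM in mCherryHigh, and 10.2, 5.26 and 7.25 CPM in mCherryLow, and rose by 2.30 against mCherryLow (limma adjusted p = 0.0039). Of the 10 genes of this list, limma called 3 lower and 1 higher against mCherryLow, beside 8.87% and 34.2% of all genes. In mCherryHigh against mCherryLow the differences were 0.20 for Nfe2l1 and 0.04 for Nfe2l2, and 0 of the 10 were called.

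The 5 members whose promoter window held TGACNNNGC, given above with their sequences, differed in DTC against mCherryLow by 0.00 (Psmb5), -0.95 (Psmb6), -0.94 (Psmc6), -0.62 (Psmd12) and -0.54 (Psmd9), beside the median of -0.89 over all 34 members tested. Psmc6 had 97.4, 176 and 59.5 CPM in DTC, 258, 91.7 and 159 CPM in mCherryHigh, and 222, 192 and 173 CPM in mCherryLow. Psmd12 had 202, 314 and 101 CPM in DTC.

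Of the 15 genes found that make ubiquitin or bring it to the proteasome, limma called 5 lower and 2 higher in DTC against mCherryLow, beside 8.87% and 34.2% of all genes, with a median of -0.37. Of the 2 called higher, Rad23b, a shuttle, was not called by edgeR (adjusted p = 0.246) or DESeq2 (adjusted p = 0.121). Uba1, the main ubiquitin-activating enzyme, had 65.5, 130 and 43.3 CPM in DTC, 221, 242 and 111 CPM in mCherryHigh, and 433, 402 and 179 CPM in mCherryLow, and fell by 2.12 (limma adjusted p = 0.0042). Ubqln1, a shuttle to the proteasome, averaged 113 CPM in DTC, 256 CPM in mCherryHigh and 353 CPM in mCherryLow and fell by 1.76 against mCherryLow (limma adjusted p = 0.00451). Nploc4, a cofactor of the Vcp unfoldase, averaged 88.3 CPM in DTC, 298 CPM in mCherryHigh and 297 CPM in mCherryLow, fell by 1.91 against mCherryLow (limma adjusted p = 0.0133) and fell by 1.92 against mCherryHigh (limma adjusted p = 0.0226, and 0.0513 without DTC 3). Rps27a, which encodes ubiquitin fused to a ribosomal protein, had 378, 285 and 201 CPM in DTC, 12.4, 7.04 and 8.08 CPM in mCherryHigh, and 6.83, 14.7 and 4.13 CPM in mCherryLow. It rose by 5.03 ± 0.48 against mCherryLow (limma adjusted p = 0.000246), and 28.0% of its windows are unique.

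Of the 10 other cap subunits and partners found, limma called 1 lower and 0 higher in DTC against mCherryLow, beside 8.87% and 34.2% of all genes. edgeR and DESeq2 also called Usp14, a deubiquitinase, and Ube3c, a ubiquitin ligase, lower (edgeR adjusted p = 0.0132 and 0.0199). The gene that limma called, Akirin2, which carries the proteasome into the nucleus, had 41.1, 70.6 and 26.0 CPM in DTC, 129, 99.7 and 117 CPM in mCherryHigh, and 104, 98.8 and 117 CPM in mCherryLow. It fell by 1.31 ± 0.42 against mCherryLow (limma adjusted p = 0.0256) and fell by 1.42 ± 0.43 against mCherryHigh (limma adjusted p = 0.0296). Without DTC 3 it was called in neither (limma adjusted p = 0.0716 against mCherryLow and 0.0739 against mCherryHigh). Of the 5 assembly factors of the core found of 6, limma called 0 in any of the 3 comparisons, while edgeR and DESeq2 called Psmg2 lower in DTC against mCherryLow (adjusted p = 0.0247 and 0.0232). Their median was -0.15 in DTC against mCherryLow.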

How the data were processed

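The authors deposited a table of CPM, read counts scaled by depth, that holds 24012 genes and 9 libraries, each matched to a sample by its label. Reads were mapped to mm9, per the submitters' processing notes, while no source used here names the aligner or the counting tool. RNA was taken up with RNAqueous-Micro and libraries were made with SMART-seq v4 and Nextera XT, per the labels' protocols.

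In each column, 100% of values were whole multiples of the worth of 1 read within 0.01 read, so whole reads and totals were recovered. limma 3.58.1 (R 4.3.3) was run per comparison on log2(CPM + 1), with a variance trend, on genes reaching 1 CPM in 3 or more of 6 libraries, two-sided, with Benjamini-Hochberg adjustment over all genes. A fold change on this scale understates the change of low genes. Count models on the recovered reads (DESeq2 1.42.0, edgeR 4.0.16) were alternatives added after seeing the data, as was the limit of 90% unique windows. The steps were run on simulated counts in which every gene was given the same relative spread between libraries. That run checks the code only. It does not measure how well differences of the size reported here are found in these libraries. Ratios of catalytic subunits were tested by exact permutation; of 9 planned, the 6 without Psmb9 were run. Unique 50-base windows and transcript lengths come from a GENCODE annotation of a later build than mm9, and promoters from RefSeq.

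Named are the 5 members with the smallest p in each direction of a comparison, the catalytic subunits, Psmd14 and a fixed few, and up to 4 called genes of each further list. A gene that this rule names is not reported here. Psma1, Psma7, Psmb1, Psmc5, Psmc6, Psmd8 and the per-kilobase comparison were chosen after their values were seen. Members, lists and motifs were chosen with earlier results of these data known. Alternatives were other pseudocounts, filters, scalings and variance settings, a replicate block, code series and leaving out each library. The intervals and the floor of 3 reads cover counting error alone.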

Additional observations from a re-analysis of the deposited data

How the results depend on the processing

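The depth of DTC 3 and mCherryHigh 1 limits the low genes. In DTC against mCherryLow, the count of members called lower, 9 as reported, was 1 with quantile normalization, 23 with median-of-ratios scaling, 15 with array weights, 24 with edgeR and 23 with DESeq2, and 5 to 18 without each library in turn (5 without DTC 1 or mCherryLow 5, 18 without DTC 2). The count called higher was 0 among genes with at least 90% unique windows, since Psma3 is not among them, and 1 without each library in turn. Over all genes, quantile normalization moved the calls to 2608 higher and 1856 lower, and median-of-ratios scaling to 5628 and 3049, beside 6405 and 1659 as reported. Psma3, Psmd5, Psmb2, Psmc3 and Psmc4 kept their limma calls without each library in turn. Psmb1 and Psmb6 lost theirs without any library but DTC 2, Psmd1 without DTC 1, DTC 3, mCherryLow 5 or mCherryLow 6, Psmc2 and Nfe2l2 without DTC 1 (adjusted p = 0.0676 and 0.0576), and Psmd3 without mCherryLow 5 (adjusted p = 0.0525). Ngly1, Akirin2 and Psme2 each lost theirs without any of 4 libraries, and Nploc4 without mCherryLow 6. The members' median minus that of all genes, -1.48 as reported, was -0.88 among genes with a mean of at least 10 CPM, -0.42 with quantile normalization, and -1.53 to -0.78 without each library in turn. It was below 0 under each setting run.

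In DTC against mCherryHigh, the count called lower, 4 as reported, was 0 with quantile normalization or without the variance trend, 7 with median-of-ratios scaling, edgeR or DESeq2, and 0 to 7 without each library in turn. The count called higher was 3 with array weights, 0 among genes with at least 90% unique windows, and 1 to 2 without each library. The median minus that of all genes, -1.15 as reported, was -0.66 among genes with a mean of at least 10 CPM, -0.33 with quantile normalization, and -1.33 to -0.67 without each library. In mCherryHigh against mCherryLow this value, -0.35 as reported, was -0.19 with quantile normalization and -0.46 to -0.25 without each library, and 0 members were called under each setting.

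Genes that were not called changed sign as follows. In mCherryHigh against mCherryLow, Psmd10 was at -0.09 with median-of-ratios scaling, -0.06 with array weights, -0.32 with the libraries numbered 5 and 6, -0.08 with edgeR and -0.09 with DESeq2. Nfe2l2 was at -0.12 with median-of-ratios scaling, -0.09 with edgeR and -0.08 with DESeq2. Psmd9 was at -0.02 with array weights and -0.16 with the libraries numbered 5 and 6, where Psmb8 was at 0.17 and Psme1 at 0.02. Without each library in turn, Psmd9 ran from -0.17 to 0.41, Psmd10 from -0.20 to 0.20, Psmb8 from -1.57 to 0.01, Psmb10 from -0.33 to 0.16, Psmf1 from -0.37 to 0.06, Nfe2l2 from -0.08 to 0.13, and the ratio of Psmb8 to Psmb5 from -1.68 to 0.23. In DTC against mCherryLow, Psmb5 was at 0.00 with a pseudocount of 5 and 0.19 with array weights, and Psme1 at 0.05 with array weights. Without each library, Psmb5 ran from -0.23 to 0.34 and Psme1 from -0.69 to 0.25. In DTC against mCherryHigh, Psma8 was at -0.04 with quantile normalization. Psmb4 was at -0.01, -0.24 and -0.05 with median-of-ratios scaling, edgeR and DESeq2, and Psme1 at -0.18, -0.31 and -0.12. Psmb5 was at -0.07 with median-of-ratios scaling and -0.18 with edgeR. Without each library, Psmb5 ran from -0.12 to 0.46 and Psme1 from -0.33 to 0.63. The cause of these changes was not tested.

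With the label number as a replicate block, mCherryHigh against mCherryLow gave 0 calls and a members' median of -0.26, as without it. The deviations of same-numbered libraries correlated at -0.204, -0.0234 and 0.270 for the numbers 1, 5 and 6, so the numbers were not taken as pairs. No paired analysis was possible for DTC because it shares fewer than 2 replicate numbers with the other groups.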
